A study of Bos taurus with 9 samples.

Results

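Histone genes of the 5 classes H1, H2A, H2B, H3 and H4 were examined in single D8 bovine blastocysts produced *in vitro*. The genes were taken by symbol (H1-, H2AC, H2BC, H3C and H4C as the first letters), which gave 60 of the 21512 genes of the deposited table, and 44 of these had a median above 0.1 TPM over all 9 libraries. TPM divides the reads of a gene by transcript length and scales each library to a sum of 1000000. The 44 genes comprised 6 of H1, 14 of H2A, 10 of H2B, 5 of H3 and 9 of H4. They were chosen by their level over both genotypes together and with earlier results of these embryos known, so that counts over them are given as a description, without a test of the family.

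RNA-seq was performed on 5 wild-type (WT) and 4 *TEAD4* -/- (KO) blastocysts, with 1 library per embryo. According to the study's methods, oocytes of the WT group had received *Cas9* mRNA alone, and those that gave KO embryos *Cas9* mRNA with a guide RNA against the fourth exon of *TEAD4*; all were fertilized with spermatozoa of a single bull. KO embryos held only frame-disrupting alleles, which arise at random and can differ between embryos, and no sex is given for any embryo. WT libraries are named WT_1 to WT_5 and KO libraries TE_1 to TE_4, as in the table.

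Histone proteins package DNA: H2A, H2B, H3 and H4 form the nucleosome core, and H1 binds the linker DNA between cores. Most genes with these symbols lie in clusters, have no introns and are transcribed mainly while DNA is replicated, and their mRNAs usually end in a stem-loop in place of a poly(A) tail. Replacement histones, such as H3.3 and H2A.Z, are encoded elsewhere by polyadenylated mRNAs made throughout the cell cycle. Both the labels and the study's methods describe capture on oligo-dT beads, with different kits, so the values refer to the histone mRNA that this capture retained, a proportion that was not measured.

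*TEAD4* transcripts ranged from 18.04 to 54.3 TPM in WT and from 12.5 to 42.8 TPM in KO libraries (log2 fold change −0.51, SE 0.42, limma adjusted p = 0.947), and TPM does not show whether they carried an indel. The trophectoderm markers *CDX2*, *GATA3*, *GATA2*, *KRT8*, *KRT18* and *TFAP2C* summed to between 4013 and 17916 TPM in WT and between 6585 and 12378 TPM in KO. Genes listed for the inner cell mass, *SOX2*, *NANOG*, *POU5F1*, *SOX17* and *GATA6*, summed to between 858 and 2141 TPM in WT and between 1410.0 and 2313 TPM in KO. Of the 11 genes, 0 were called, against 0.0205% of all genes, which does not show the genotypes to be alike. The inner cell mass sum was mainly *POU5F1* (log2 fold change 0.57), whereas *SOX2* (−0.68), *NANOG* (−1.43), *SOX17* (−1.12) and *GATA6* (−0.47) were lower on average in KO. According to the study, *POU5F1* and *CDX2* do not exclude each other in bovine blastocysts as they do in mouse. This sum therefore does not measure the inner cell mass. The number of genes above 0 TPM was 14807 to 16678 in WT and 14776 to 15375 in KO libraries. TPM does not keep the number of reads of a gene, and the precision of low values is therefore unknown.

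Markers of cells that could adhere to an embryo were also compared. Of 10 cumulus cell genes, 7 were tested. On average 2 of these were higher in KO, against 44.2% of all genes, and 5 were lower. The number called was 0, against 0.0205% of all genes. The 10 genes summed to between 212 and 487 TPM in WT and to 65.9, 104, 355 and 17.6 TPM in TE_1 to TE_4. Most of this sum was *HSD3B1* (log2 fold change −2.10, SE 0.79, limma adjusted p = 0.753) and *CYP11A1* (−2.61, SE 0.73, limma adjusted p = 0.566). *FSHR* reached 26.8 TPM and *STAR* 11.7 TPM in the highest library. The highest values of *CYP19A1*, *AMH* and *TNFAIP6* were 3.05, 2.27 and 2.08 TPM, and those of *HAS2*, *INHBA* and *PTX3* 0.520, 0.386 and 0.370 TPM. No gene of the list was at 0 in every library. Sperm genes summed to between 1.66 and 121 TPM in WT and between 0.779 and 74.9 TPM in KO, with *ODF1* at 0 in every library. Their part in the differences of histone transcripts was not tested.

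Summed over the 44 genes, histone transcripts were higher in every KO than in every WT blastocyst. The family sum was 342, 406, 311, 506 and 479 TPM in WT_1 to WT_5 and 1456, 4721, 1337 and 3516 TPM in TE_1 to TE_4. The lowest KO embryo, TE_3, was thus 2.64-fold above the highest WT embryo, WT_4. Within WT the highest sum was 1.63 times the lowest, whereas within KO it was 3.53 times, TE_2 and TE_4 being well above TE_1 and TE_3. The mean of the KO embryos was 6.74 times that of WT, and 5.14 times without TE_2. These sums were 0.0311 to 0.0506% of the library in WT and 0.134 to 0.472% in KO. In whole embryos, a difference in the number of cells of a type and a difference in RNA per cell cannot be told apart.

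The mean sum was higher in KO in each class, but the size of the difference and its spread over embryos varied. H2A transcripts summed to between 179.6 and 337 TPM in WT and between 895 and 2383 TPM in KO, a ratio of means of 6.66. H2B transcripts were at 51.2 to 188 TPM in WT and 228 to 1289 TPM in KO, a ratio of 8.14. For H4, the sums were 14.2 to 25.2 TPM and 35.5 to 399.5 TPM. In these 3 classes the genotypes did not overlap. H3 transcripts were the scarcest in WT, at 2.33 to 7.10 TPM, and were at 19.2, 513, 25.1 and 5.93 TPM in TE_1 to TE_4, so that TE_4 remained within the WT range. H1 transcripts overlapped as well, at 19.1 to 70.8 TPM in WT and 49.1 to 136 TPM in KO.

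**Figure D1:**
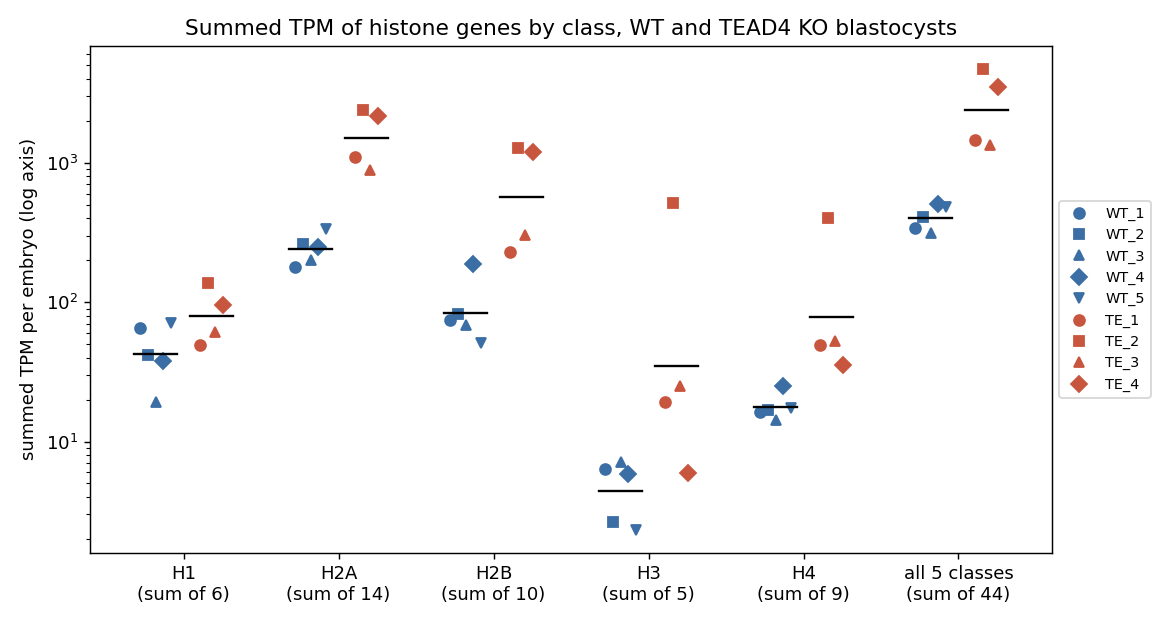
Summed TPM per embryo (vertical axis, log scale) of the genes of each histone class and of all 5 classes (horizontal axis). Each symbol is 1 embryo, blue for WT and red for KO, and lines are geometric means. KO embryos lie above all WT embryos for H2A, H2B, H4 and the whole family, and overlap with WT for H1 and H3, where TE_2 reaches 513 TPM and TE_4 stays at 5.93 TPM.

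The ratio of means for H3 and H4 rested mainly on TE_2. It was 29.1 for H3 and 7.46 for H4 with all KO embryos and 3.46 and 2.54 without TE_2. In contrast, the ratio for H2A was between 5.66 and 7.67 and that for H2B between 6.23 and 10.04 whichever KO embryo was left out.

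Gene by gene, both genotypes were compared with limma, which fits linear models with moderated variances, on log2(TPM + 1) of the 14599 genes with a median above 0.1 TPM. Fold changes on this scale (KO minus WT, given with their standard error, SE) understate the difference of genes near or below 1 TPM. An adjusted p-value under 0.05 (Benjamini-Hochberg over all genes) with an absolute log2 fold change above 1 was reached by 3 genes, 0.0205% of those tested. Of these, 2 were histone genes, *H2AC18* and *H2BC5*, both higher in KO, and higher genes made up 0.0137% of all tested. All KO embryos lay above all WT embryos for 15 of the 44 histone genes, against 0.801% of all genes, and below them for 0, against 1.23%. Of the other histone genes, 12 had 3 KO embryos above the WT maximum, 9 had 2, 7 had 1 and 1 had 0. A log2 fold change above 1 was obtained for 29 of the 44 genes, against 1.14% of all genes, and an unadjusted p-value under 0.05 with a higher KO mean for 25, against 2.07%.

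On average over embryos, log2(TPM + 1) was higher in KO for all 44 histone genes, against 44.2% of all genes, and the median log2 fold change was 1.48, against −0.046 over all genes. The class medians were 0.71 for H1, 1.48 for H2A, 2.30 for H2B, 1.52 for H3 and 1.26 for H4. Of the 44 genes, 2 (*H2AC8* and *H4C13*) had a WT median at or below 0.1 TPM and thus passed the threshold through their KO values. Their higher KO means are therefore in part a result of this selection. *H2AC8* was also counted among the genes with a log2 fold change above 1 and those with an unadjusted p-value under 0.05. *H4C13* was in neither count. The gene closest above the threshold was *H1-6*, with a median of 0.133 TPM, and the 16 genes below it all had a median of 0. Of the 44 genes, 18 were listed at 0 in at least 1 WT library and 10 in at least 1 KO library.

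**Figure D2:**
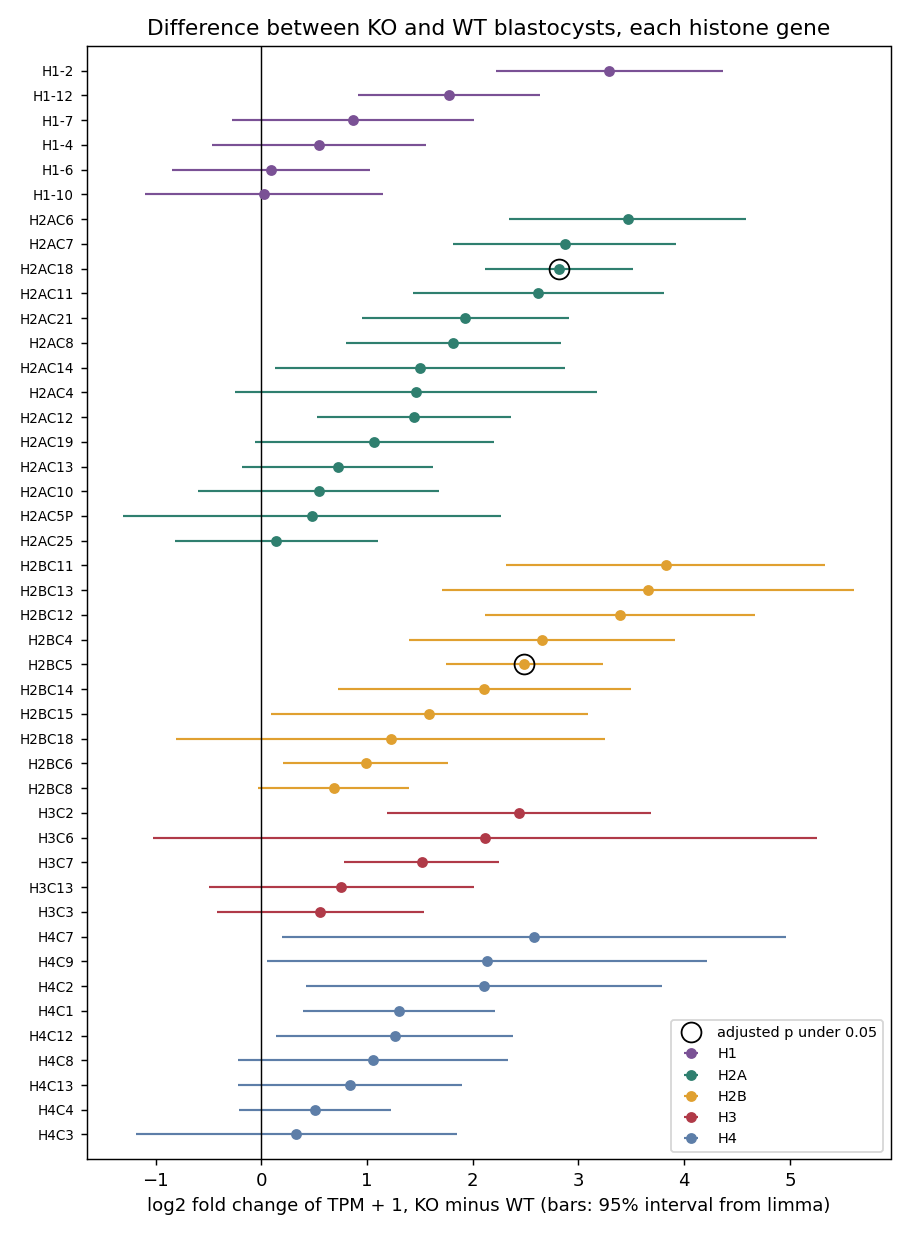
Log2 fold change of TPM + 1 in KO against WT blastocysts (horizontal axis) for each of the 44 histone genes (vertical axis), by class. Points are estimates, bars their unadjusted 95% intervals from limma, and black circles mark *H2AC18* and *H2BC5*, with adjusted p under 0.05. All points are to the right of 0, from 0.028 for *H1-10* to 3.82 for *H2BC11*, and the intervals of several genes, including *H3C6* and *H4C3*, cross 0.

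Calls of single genes depended on individual embryos. Without WT_3, WT_4, TE_1, TE_2 or TE_4, limma called 0 histone genes and 0 of all genes. In those fits between 20 and 27 histone genes had an unadjusted p-value under 0.05 and a higher KO mean, against 1.84 to 3.52% of all genes. The log2 fold change was 2.60 to 2.95 for *H2AC18* and 2.25 to 2.60 for *H2BC5* in the same fits, compared with 2.82 and 2.49 with all embryos. Without WT_1, WT_2 or WT_5, *H2AC18* was the 1 histone gene called, of 1 or 2 genes in all. Without TE_3 there were 6 of 10 genes called, namely *H1-2*, *H2AC18*, *H2AC6*, *H2AC7*, *H2BC11* and *H2BC5*. The number of histone genes in which every KO embryo exceeded every WT embryo was 15 to 20 when single embryos were left out, against 0.986 to 2.48% of all genes, and the 20 were obtained without TE_4, against 1.82%.

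The H1 class consists of linker histones. Its highest gene was *H1-10*, which encodes a linker histone expressed independently of replication and stands apart from the histone clusters. It was at 61.8, 37.8, 11.3, 31.7 and 64.7 TPM in WT and 16.9, 68.6, 50.5 and 28.8 TPM in KO, fully overlapping (log2 fold change 0.028, 95% interval −1.10 to 1.16), and its direction changed when single embryos were left out. *H1-10* made up 59.4 to 93.9% of the H1 sum in WT and 30.4 to 82.2% in KO.

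Without *H1-10*, the other 5 H1 genes summed to between 3.94 and 7.75 TPM in WT and between 10.9 and 67.7 TPM in KO, a ratio of means of 7.91 compared with 1.81 when it was included. The highest of the 5 by mean was *H1-2*, a replication-dependent linker histone gene, at 0.722, 1.49, 1.28, 1.97 and 2.90 TPM in WT and 19.3, 51.1, 8.15 and 40.8 TPM in KO. Its groups did not overlap and its log2 fold change was 3.29 (SE 0.49), but the adjusted p from limma was 0.0554, with a range of 0.0095 to 0.175 over the alternative fits. *H1-12* was at 0.421, 1.53, 1.37, 1.26 and 0.966 TPM in WT and 6.29, 5.22, 2.66 and 14.3 TPM in KO, again without overlap (log2 fold change 1.78, limma adjusted p = 0.335). *H1-4*, *H1-7* and the least abundant gene, *H1-6*, overlapped between genotypes, and *H1-4* and *H1-7* were at 0 in TE_3.

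In the H2A class, *H2AC18* exceeded all other histone genes in every embryo. Its values were 128, 199, 161, 189 and 263 TPM in WT and 973, 1867, 759 and 2029.7 TPM in KO. The lowest KO value, that of TE_3, was well above the highest WT value. This gene, which encodes a core histone, rose with a log2 fold change of 2.82 (95% interval 2.11 to 3.52, limma adjusted p = 0.0226). The limma adjusted p of *H2AC18* was between 0.0095 and 0.103 in the alternative fits. This gene accounted for 37.3 to 54.9% of the whole family sum in WT and 39.5 to 66.8% in KO.

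Higher sums were also obtained when this gene was left out. Without *H2AC18*, the other 43 genes summed to between 150 and 318 TPM in WT and between 483 and 2854 TPM in KO, and the other H2A genes to between 40.4 and 74.1 TPM and between 135 and 516 TPM. *H2AC6* had the largest log2 fold change of the class, 3.46 (SE 0.51, limma adjusted p = 0.0554, 0.0201 to 0.175 over the alternative fits). It was at 0.893, 2.65, 2.39, 6.12 and 2.73 TPM in WT and 43.5, 107, 17.6 and 27.4 TPM in KO. *H2AC7*, *H2AC11*, *H2AC12* and *H2AC21* were also higher in every KO than in every WT embryo, with log2 fold changes between 1.44 and 2.87 and none called. The most abundant of these, *H2AC12*, had means of 16.4 ± 3.84 TPM (SD, n = 5) and 56.9 ± 50.4 TPM (SD, n = 4), and the latter was 31.7 TPM without TE_2.

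By contrast, the H2A gene with the next highest mean level, *H2AC13*, overlapped between genotypes, at 32.6, 33.8, 15.2, 24.0 and 40.8 TPM in WT and 27.3, 115, 40.2 and 36.7 TPM in KO, where only TE_2 was above the WT range (log2 fold change 0.72, SE 0.41, limma adjusted p = 0.897). The smallest difference of the class was that of *H2AC25*, with means of 2.84 TPM in WT and 3.24 TPM in KO blastocysts, respectively (log2 fold change 0.14, 95% interval −0.81 to 1.10). The remaining 6 H2A genes (*H2AC4*, *H2AC5P*, *H2AC8*, *H2AC10*, *H2AC14* and *H2AC19*) overlapped between genotypes and had WT means below 1 TPM and log2 fold changes from 0.48 to 1.82.

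The H2B class had the largest median difference. *H2BC5* was at 1.55, 1.69, 2.04, 2.70 and 3.41 TPM in WT and 13.4, 18.2, 11.8 and 28.9 TPM in KO, without overlap. It rose with a log2 fold change of 2.49 (95% interval 1.74 to 3.23, limma adjusted p = 0.0489), and its adjusted p was between 0.0226 and 0.162 in the alternative fits. *H2BC11* had the largest log2 fold change of all histone genes, 3.82 (SE 0.69, limma adjusted p = 0.141). Its values were 5.37, 3.98, 9.64, 22.8 and 12.2 TPM in WT and 88.1, 458, 34.0 and 294 TPM in KO, so that the KO embryos, although all above WT, differed strongly from each other.

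*H2BC12* was at 1.46, 2.79, 9.25, 8.95 and 3.73 TPM in WT and 43.1, 180.0, 23.1 and 52.6 TPM in KO blastocysts, respectively (log2 fold change 3.40, limma adjusted p = 0.104). *H2BC4* and *H2BC14* also did not overlap between genotypes. For *H2BC13* the means were 5.57 TPM (WT) and 144 TPM (KO), with 440.4 TPM in TE_2 and a KO mean of 45.1 TPM without it, while TE_1 was within the WT range at 9.70 TPM.

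*H2BC15*, the most abundant H2B gene in WT, showed a different pattern over embryos. It was at 51.9, 67.9, 29.6, 133 and 23.9 TPM in WT and 46.6, 138, 122 and 725 TPM in KO, so that TE_1 and TE_3 were within the WT range and TE_4 was far above the others (log2 fold change 1.59, SE 0.69, limma adjusted p = 0.818). Its share of the H2B sum was 42.9 to 82.5% in WT and 10.7 to 60.2% in KO. *H2BC6*, *H2BC8* and *H2BC18* overlapped between genotypes, *H2BC8* having the smallest log2 fold change of the class (0.68, SE 0.33).

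Transcripts of H3 genes were few in WT embryos and in TE_4. *H3C2* was at 0.980, 0.856, 1.11, 1.43 and 0.669 TPM in WT and 13.0, 35.0, 8.35 and 1.87 TPM in KO blastocysts, respectively (log2 fold change 2.44, SE 0.57, limma adjusted p = 0.396). The groups did not overlap, but TE_4, which had one of the 2 highest family sums, was close to WT for this gene. *H3C7* did not overlap either, with means of 0.775 and 3.96 TPM.

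*H3C6* was the leading H3 gene by mean level through a single embryo. It was at 461 TPM in TE_2, at 0.219, 2.71 and 0 TPM in TE_1, TE_3 and TE_4, and at 1.77, 0, 1.61, 0 and 0.276 TPM in WT_1 to WT_5. Its log2 fold change of 2.12 therefore had a wide 95% interval, from −1.03 to 5.26. Without it, the other H3 genes summed to 2.06 to 5.82 TPM in WT and 19.0, 52.6, 22.4 and 5.93 TPM in KO. *H3C3*, the leading H3 gene in WT, had means of 1.91 TPM (WT) and 3.48 TPM (KO) and the smallest log2 fold change of the class (0.56, SE 0.45), and *H3C13* also overlapped.

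None of the 9 H4 genes was higher in every KO than in every WT embryo, against 0.801% of all genes. The sum of the class was. *H4C2* was at 3.40, 9.54, 3.09, 0.783 and 9.15 TPM in WT and 11.1, 117, 5.62 and 23.4 TPM in KO blastocysts, respectively (log2 fold change 2.11, SE 0.77, limma adjusted p = 0.731), with TE_3 within the WT range. *H4C7* was at 0, 0, 1.60, 0.436 and 0.623 TPM in WT and 2.01, 146, 11.2 and 0 TPM in KO, with the largest log2 fold change of the class (2.58, SE 1.09). *H4C9* had means of 2.62 TPM (WT) and 29.3 TPM (KO), with 101 TPM in TE_2 and a KO mean of 5.44 TPM without it. All 3 genes were far higher in TE_2 than in any other embryo.

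Without *H4C2*, *H4C7* and *H4C9*, the other H4 genes summed to 4.43 to 17.1 TPM in WT and 34.3, 35.5, 25.8 and 7.13 TPM in KO, TE_4 being within the WT range. *H4C3* had the smallest log2 fold change of the class (0.33, 95% interval −1.18 to 1.85), and no KO embryo exceeded its WT maximum. The other 5 genes, *H4C1*, *H4C4*, *H4C8*, *H4C12* and *H4C13*, had log2 fold changes from 0.51 to 1.31.

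**Figure D3:**
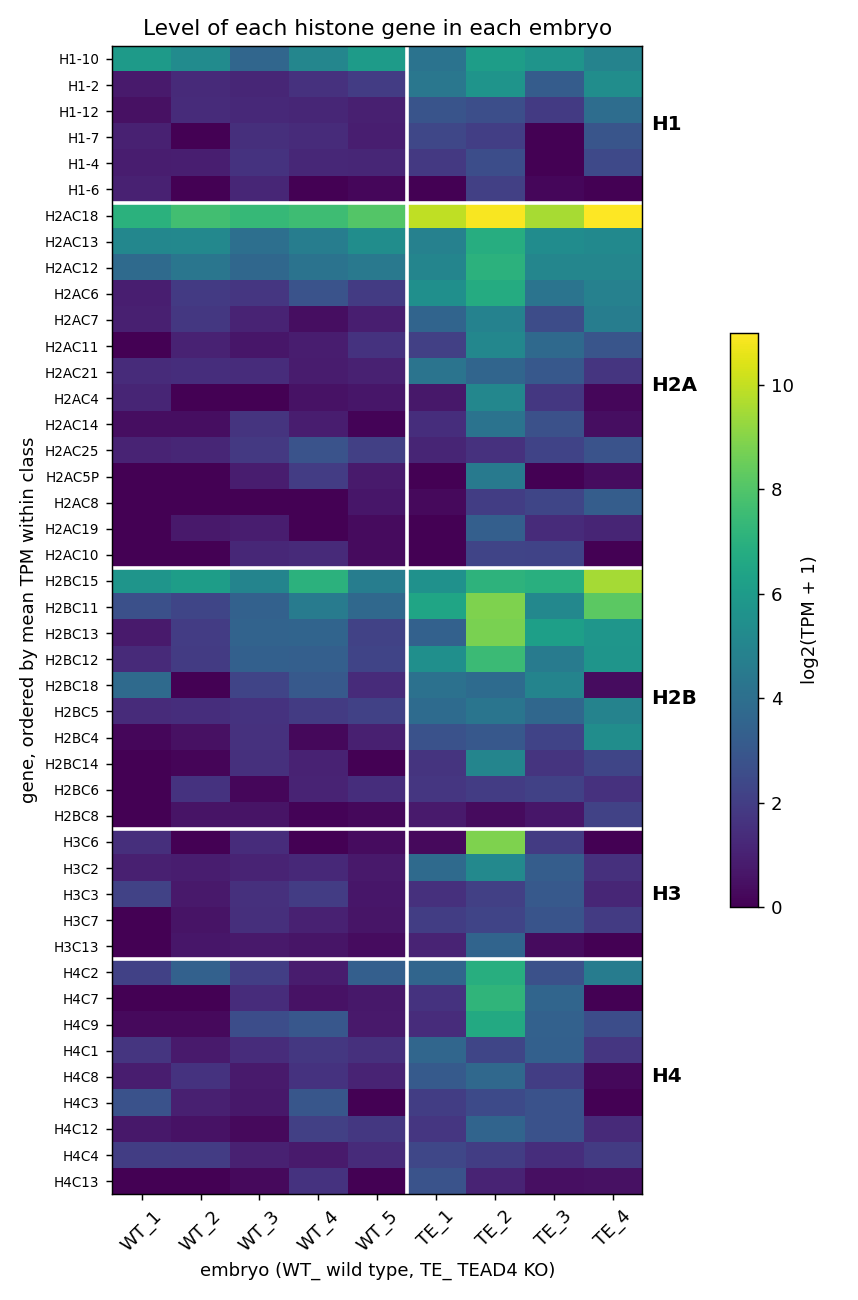
Level of each of the 44 histone genes (rows, ordered by mean TPM within class) in each embryo (columns) as log2(TPM + 1), shown by colour. *H2AC18* is the brightest row in all embryos, TE_2 is the KO embryo with the highest value for 26 of the genes, and *H3C6*, *H4C7* and *H4C9* are brightest in TE_2.

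The KO embryos were not alike in which genes were high. TE_2 had the highest KO value for 26 genes, TE_4 for 9, TE_3 for 5 and TE_1 for 4. Shares over all genes were not computed for this ranking, so it cannot be read as particular to histone genes. TE_4 led for 4 H2B genes, including *H2BC15* and *H2BC5*, and for 0 of the H3 or H4 genes, whereas TE_1 led for 3 H4 genes. The number of histone genes above the WT maximum was 27 in TE_1, 39 in TE_2, 31 in TE_3 and 24 in TE_4. Over all genes tested, the corresponding share was 10.8% in TE_1, 32.9% in TE_2, 18.9% in TE_3 and 23.4% in TE_4, compared with 61.4%, 88.6%, 70.5% and 54.5% of the histone genes.

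The number of histone genes at a given level also differed. Above 10 TPM there were 5 to 7 histone genes in WT embryos and 16, 27, 13 and 15 in TE_1 to TE_4. The order of the genes by mean level within their class was the same in WT and KO for 17 of the 44. In H1, H2A and H2B the first gene stayed first (*H1-10*, *H2AC18* and *H2BC15*), and *H2BC11*, *H2BC13* and *H2BC12* followed *H2BC15* in both genotypes. In H3 and H4 the first place passed from *H3C3* to *H3C6* and from *H4C2* to *H4C7*, in both cases through TE_2.

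The composition of the family was described by the share of each class in the family sum. H2A held 49.3 to 70.4% in WT and 50.5 to 76.2% in KO embryos. H2B held 10.7 to 37.1% and 15.7 to 34.3%. These shares overlapped, so that the genotypes were not separated by the proportion of either class. H4 held 3.64 to 4.98% in WT and 3.37, 8.46, 3.91 and 1.01% in TE_1 to TE_4. H3 held 0.487 to 2.28% in WT and 1.32, 10.9, 1.88 and 0.169% in KO, the extremes of both classes being TE_2 and TE_4.

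H1 was the class whose share did not overlap, at 19.2, 10.3, 6.13, 7.48 and 14.8% in WT and 3.37, 2.89, 4.60 and 2.69% in KO. *H1-10* alone made up 3.64 to 18.1% of the family sum in WT and 0.819 to 3.78% in KO. *H1-10* and *H1-7* lie apart from the other histone genes. With both left out, the H1 share differed by 0.203 percentage points between KO and WT means, compared with −8.20 points for the whole class.

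**Figure D4:**
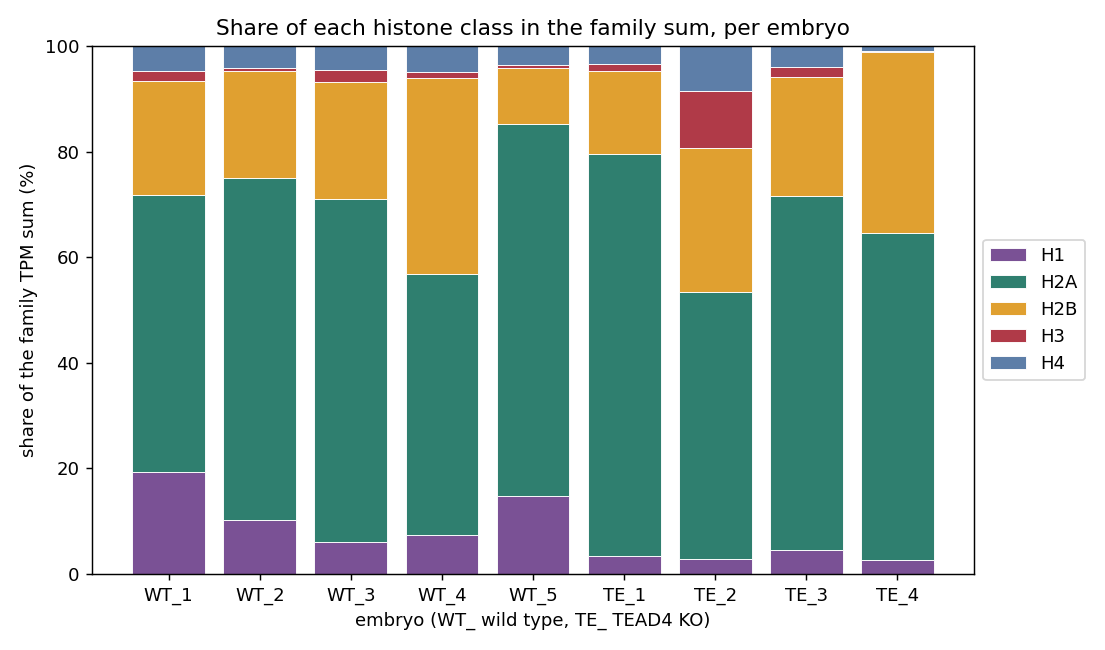
Share of each histone class in the family TPM sum (vertical axis, percent) for each embryo (horizontal axis). H2A is the largest class in every embryo, the H1 share is lower in all KO (2.69 to 4.60%) than in all WT embryos (6.13 to 19.2%), and TE_2 has the largest H3 (10.9%) and H4 (8.46%) shares.

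The position of the genes was taken from the order of genes in the RefSeq annotation of ARS-UCD2.0, in which 42 of the 44 symbols were found; coordinates are left out because the build behind the table is not stated. Histone genes were grouped into runs separated by more than 50 other genes. The largest run held 22 of the genes, among them *H1-2*, *H2AC6*, *H2BC5* and *H3C2*, and its sums were 30.2 ± 3.54 TPM in WT (SD, n = 5) and 391 ± 456 TPM in KO (SD, n = 4), with 1072 TPM in TE_2 and a KO mean of 165 TPM without it. A run of 5, *H2AC11*, *H2BC11*, *H2AC12*, *H2BC12* and *H4C9*, was at 36.0 ± 13.95 and 393 ± 361 TPM, with 904 TPM in TE_2 and a KO mean of 223 TPM without it. A run of 7 with *H2AC13*, *H2BC13* and *H2BC15* was at 99.3 ± 45.5 and 479.5 ± 362 TPM, and the run of 5 that holds *H2AC18* at 195 ± 46.4 and 1438 ± 625 TPM. KO means were higher in each of these 4 runs, but in the run with *H2BC15* TE_1, at 95.9 TPM, was within the WT range of 59.5 to 175 TPM. Every KO embryo exceeded every WT embryo for 7, 4, 1 and 2 of their genes, in the order given, against 0.801% of all genes. *H1-10* and *H1-7* stood alone and *H2AC25* beside 1 other histone gene, and the genotypes overlapped for all 3.

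H2A and H2B genes often lie next to each other and share a promoter region. In 5 pairs of an H2A and an H2B gene that were direct neighbours, both genes were among the 44. The pairs were taken by gene order alone, and a shared promoter region was not examined. In 4 of them the H2B gene had the larger log2 fold change, as in *H2AC13* and *H2BC13* (0.72 and 3.66) and *H2AC12* and *H2BC12* (1.44 and 3.40), and in *H2AC8* and *H2BC8* the H2A gene had (1.82 and 0.68). The difference between neighbours was not tested. In all 5 pairs both genes had their highest KO value in the same embryo, TE_4 for *H2AC8* and *H2BC8* and TE_2 for the others. However, TE_2 had the highest KO value for 26 of the 44 genes, and the rate for genes that are not neighbours was not examined. Histone genes of a class have near-identical coding sequences, among which pseudoalignment has to divide the reads, which makes single genes less certain than class sums.

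In other groups of histone and S phase genes no gene was called. Over all genes tested, 0.0205% were called, so that 0 calls do not set these groups apart from other genes. A higher mean in KO was obtained for 44.2% of all genes. Replacement histones (*H3-3A*, *H3-3B*, *H2AZ1*, *H2AZ2*, *H2AJ*, *MACROH2A1*, *MACROH2A2* and *CENPA*) were together more abundant than the 44 genes in every embryo, with 2966 to 6712 TPM in WT and 3313 to 5734 TPM in KO, and overlapped. Of these 8, 4 had a higher mean in KO, 0 were called, and the log2 fold changes lay between −0.25 and 0.23. *H3-3A*, which encodes H3.3, had means of 1214 TPM (WT) and 1018 TPM (KO), and *H2AZ1*, which encodes H2A.Z, 1294 and 1069.6 TPM. Of 13 genes for transcription of histone genes and 3′ processing of their mRNAs, 6 were higher in KO on average and 0 were called. *SLBP*, whose protein binds the stem-loop, was at 87.4 and 90.2 TPM, and *NPAT*, the coactivator of histone genes, at 2.41 and 2.25 TPM. The similar means of *NPAT* came from KO embryos on both sides of the WT range (1.98 to 2.80 TPM). TE_1 (0.204 TPM) and TE_3 (0.610 TPM) lay below this range, whereas TE_2 (3.47 TPM) and TE_4 (4.72 TPM) lay above it. *LSM11* had the largest log2 fold change of the 13 genes, 0.91 (SE 0.38, limma adjusted p = 0.797). Its means were 1.11 TPM (WT) and 3.38 TPM (KO), and TE_4, with 1.56 TPM, was within the WT range.

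Of 31 DNA replication genes, including *PCNA* and the *MCM* genes, 12 were higher in KO on average, against 44.2% of all genes. Of the 31, 0 were called, against 0.0205% of all genes. Their median log2 fold change was −0.068, against −0.046 over all genes. In the sum of the 31 genes TE_2 and TE_4, at 2796 and 3076 TPM, were above every WT embryo (1893 to 2279 TPM). TE_1 and TE_3, at 1504 and 1448 TPM, were below every WT embryo. The histone sum also had TE_2 and TE_4 above TE_1 and TE_3, but with TE_2 highest. This division was not particular to replication genes. The 13 genes for transcription and processing summed to 420 and 399 TPM in TE_2 and TE_4, 180 and 257 TPM in TE_1 and TE_3, and 261 to 362 TPM in WT. TE_2 and TE_4 also had the largest shares of all genes above the WT maximum (32.9% and 23.4%). All 4 KO embryos were above WT in the histone sum.

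**Figure D5:**
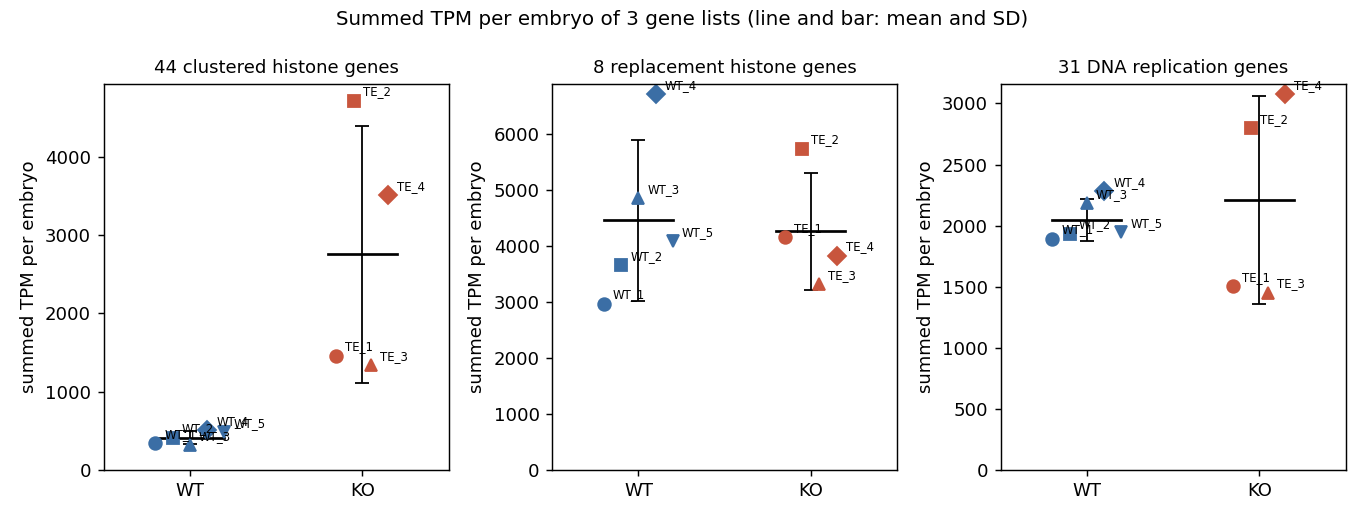
Summed TPM per embryo (vertical axes, from 0) of the 44 histone genes, 8 replacement histone genes and 31 DNA replication genes in WT and KO blastocysts. Symbols are embryos, lines and bars the mean and SD. The genotypes separate for the 44 histone genes, whereas for DNA replication TE_2 and TE_4 lie above and TE_1 and TE_3 below the WT embryos.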

How the data were processed

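D8 blastocysts (5 WT, 4 KO) were sequenced singly. After quality control and pseudoalignment by the authors, values were deposited as TPM, scaled to 1000000 per library. The submitters' processing notes name FastQC, fastp and kallisto; versions, annotation and build are not given in the sources used here. Columns were assigned to genotypes by name. TPM keeps no read numbers, so depth is unknown and DESeq2, the test of the study, was not run.

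Genes with a median above 0.1 TPM were tested with limma 3.58.1 (R 4.3.3; lmFit, eBayes with trend), the values being log2(TPM + 1), and p-values were adjusted by Benjamini-Hochberg, after the script was tested on simulated data. Class sums and shares were computed per embryo in Python 3.11.15 with pandas 2.3.3. The limma p-values weigh the difference between genotypes against the spread between embryos, with variances moderated over genes.

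The genes and lists were chosen with earlier results of these data known. Named genes were, in each class, the 3 with the highest mean, those with the largest and smallest log2 fold change, those called and those named in the paper (*H2BC9* is not analysed here); others named were chosen after their values were seen. A list of 5 RNAs without poly(A) tails had 0 genes in the table. Alternatives were another pseudocount, filters, scalings and variance models, and leaving out single genes or each embryo; means of single genes and of runs without TE_2 were added after the data were seen.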

Additional observations from a re-analysis of the deposited data

Results flagged for a closer look

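In 9 of 50 groups of 4 or 5 embryos that were checked, the highest embryo stood farther from its nearest neighbour than Dixon's 95% critical value allows. Chance gives about 1 in 20 for normally distributed values. The values checked were TPM and shares without a log scale, so that the count cannot be read against this rate. The groups also share embryos and genes and are not independent. In 7 of these the embryo was TE_2, with an H3 sum of 513 TPM and an H4 sum of 399.5 TPM, an H3 share of 10.9% of the family sum, and 461 TPM for *H3C6*, 117 TPM for *H4C2*, 146 TPM for *H4C7* and 115 TPM for *H2AC13*. *H2BC15* stood apart in TE_4, at 725 TPM. Among WT embryos the H2B sum of WT_4, 188 TPM, stood apart, and 133 TPM of it was *H2BC15*.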

How the results depend on the processing

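The number of histone genes past both thresholds, 2 as reported, was 4 with a pseudocount of 0.1 TPM, a median above 1 TPM, median-of-ratios size factors, quantile normalization or robust eBayes, in each case with *H1-2* and *H2AC6* added, of 8, 8, 5, 6 and 6 genes called in all. It was 1 of 2 with no filter on low values, 2 of 5 without trend, 2 of 4 with array weights (*H2AC18* and *H2AC6*), and 0 to 6 of 0 to 10 when single embryos were left out. The log2 difference of the family sum (2.57) was between 2.24 and 2.85 without single embryos. That of H1 (0.89) was 2.90 without *H1-10* and *H1-7*, and that of H2A (2.65) was 1.76 without *H2AC18*. Without *H2AC18* the shares of H1, H2A and H2B differed by −13.7, −7.12 and 15.8 percentage points (as reported −8.20, 3.53 and 2.61), and without *H1-10* and *H1-7* that of H1 by 0.203. When single embryos were left out, 40 to 44 of the 43 or 44 histone genes tested had a higher mean in KO. The log2 fold change was reversed for *H1-10* with array weights (−0.28) and without single embryos (range −0.36 to 0.38), for *H1-6* with a pseudocount of 0.1 TPM (−0.15) and without single embryos (−0.028 to 0.28), and without single embryos for *H2AC25* (−0.15 to 0.41), *H2AC5P* (−0.61 to 0.89), *H3C13* (−0.013 to 1.17) and *H4C3* (−0.035 to 0.93). The cause was not tested. No paired analysis was possible because each column is a separate embryo and the numbers in the column names are not described as pairs. TPM does not give the reads behind a value, so differences of genes near 0 TPM could not be weighed by depth.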

Other observations

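The 16 histone genes at a median of 0 TPM entered no comparison. *H2BC2P* was at 0 in every library, and the other 15 were above 0 in 1 to 4 of the 9 libraries. *H3C4* was above 0 in TE_2 alone, at 9.82 TPM, *H4C14* reached 7.62 TPM in TE_2 and *H4C16* 7.03 TPM in TE_1. Among WT libraries the highest values were 5.78 TPM for *H2BC1* in WT_3 and 4.11 TPM for *H1-8*, the oocyte linker histone gene, in WT_1.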
